A study of Mus musculus with 4 samples.

Results

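Tiparp, Sox4, Pag1 and Map3k6 are 4 genes picked because their signals were much higher in mouse calf muscle 3 h after an injection of cortisol. They were chosen by that signal, and were found as every probe set whose platform annotation names 1 of these genes as its only symbol, which gave 6 of 12422 probe sets that were not controls, and 4 of 8251 genes. Tiparp and Map3k6 had 1 probe set each, and Sox4 and Pag1 had 2 each. The 3 h array chose the genes, so every difference that involves it is given here as a description, and no cut-off was stated for the choice.

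Messenger RNA was measured in the gastrocnemius, a fast muscle of the mouse calf, on Affymetrix MG-U74Av2 arrays, with 1 array per group and RNA pooled from 10 mice on each array. The 4 groups were intact mice with no treatment named, adrenalectomized mice taken 1 week after surgery, and adrenalectomized mice given 0.1 mg of cortisol into the peritoneum either 3 h or 24 h earlier. All groups but the intact one lacked adrenal glands, and no vehicle injection, strain, sex, age or time of day was given. The interval between surgery and muscle collection was stated only for the adrenalectomized group without cortisol. With 1 array per group the differences have no replicate check, no p-value was computed, and the number of arrays limits the precision. In pooled tissue, more cells of a type and more RNA per cell cannot be told apart.

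Glucocorticoids such as cortisol, or corticosterone in the mouse, bind the glucocorticoid receptor, which enters the nucleus and raises or lowers transcription of its target genes within hours. Each of the 4 genes encodes a regulator. Tiparp encodes an enzyme that attaches single ADP-ribose units to proteins. It is a classical target of the aryl hydrocarbon receptor, a sensor of foreign chemicals, and acts back on that receptor as a repressor. Sox4 encodes a transcription factor of the SoxC group, with an HMG box that binds DNA, known from progenitor cells in development. Pag1 encodes a membrane adaptor of lipid rafts that, once phosphorylated, recruits the kinase Csk, which in turn restrains Src family kinases. Map3k6, also called Ask2, encodes a stress-activated kinase that works with its relative Map3k5 (Ask1) upstream of the p38 and JNK kinases.

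Promoter windows are shown because the 4 genes share the 3 h pattern. RefSeq windows of the GRCm38.p6 build, running from 250 bases before to 50 bases after an annotated start, were found for 3 of the 4 genes, Tiparp, Sox4 and Map3k6. Capitals mark GCGTG on either strand, the core letters bound by the aryl hydrocarbon receptor, and would also mark AGAACA on either strand, the half-site of the glucocorticoid receptor.
Tiparp, chr3:65528197-65528496, plus strand: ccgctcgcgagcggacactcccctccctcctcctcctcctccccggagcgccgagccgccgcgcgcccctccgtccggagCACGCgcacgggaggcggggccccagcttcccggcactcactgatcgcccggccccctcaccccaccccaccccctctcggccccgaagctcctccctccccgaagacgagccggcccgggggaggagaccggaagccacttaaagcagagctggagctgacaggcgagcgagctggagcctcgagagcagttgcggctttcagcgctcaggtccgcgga
Sox4, chr13:28953650-28953949, minus strand: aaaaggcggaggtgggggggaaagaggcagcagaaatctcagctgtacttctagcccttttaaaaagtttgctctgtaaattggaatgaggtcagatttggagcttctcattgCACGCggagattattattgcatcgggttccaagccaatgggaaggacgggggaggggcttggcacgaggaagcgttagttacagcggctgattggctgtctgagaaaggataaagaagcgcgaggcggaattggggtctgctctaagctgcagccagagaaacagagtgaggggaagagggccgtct
Map3k6, chr4:133240568-133240867, plus strand: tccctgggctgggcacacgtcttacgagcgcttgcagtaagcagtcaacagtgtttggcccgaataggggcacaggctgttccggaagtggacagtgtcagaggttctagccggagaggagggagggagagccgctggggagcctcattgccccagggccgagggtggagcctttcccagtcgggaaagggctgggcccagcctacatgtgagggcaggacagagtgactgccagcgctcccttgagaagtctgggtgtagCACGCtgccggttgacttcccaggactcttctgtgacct

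The core GCGTG occurred 1 time in each of the 3 windows, in each case as CACGC on the strand of the gene. It began at base -170 from the start in Tiparp, at base -137 in Sox4 and at base 12 after the start in Map3k6. Of all 32851 windows of this length, 32.4% held it. The half-site AGAACA, held by 19.0% of all windows, did not occur in the 3 windows, and neither did the palindrome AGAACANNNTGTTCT. The CCAAT box occurred 4 times in the Sox4 window, counting both strands, and not in the other 2, against 37.4% of all windows with at least 1. None of the 3 windows held the GC box GGGCGG on either strand, and 35.7% of all windows held it. The G and C content was 73.7% for Tiparp, 52.0% for Sox4 and 62.0% for Map3k6, with a median of 52.7% over all windows. The Map3k6 window lies at a start inside the span that RefSeq lists for the gene, so other starts of Map3k6 were not searched. A match of letters describes the window and is not evidence of binding.

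The 4 arrays were close in overall signal. With the trimmed mean of every array set to 500, the median signals lay between 189 and 199.6, and between 63.0% and 64.4% of probe sets reached 100, which was used as a floor below which differences were not read. The arrays came from 1 chip lot and were hybridized and scanned on 1 day, but each in a different fluidics module, so an effect of module cannot be told apart from one of group or pool. The fast myosin gene Myh4 read between 33149 and 34919 on all 4 arrays. The slow myosin gene Myh7 read 8238, 9420, 2342 and 2325 in the group order, which is intact, adrenalectomized, 3 h after cortisol and 24 h after cortisol, so the 2 cortisol arrays stood apart in slow fibre signal. Error was estimated by comparing 2 probe sets of 1 gene on the same arrays. For genes with a mean signal under 500, where the 4 genes lie outside the 3 h array, the SD of that error of a log2 ratio was 0.29 for adrenalectomized against intact (327 genes), 0.35 for 3 h against adrenalectomized (328 genes) and 0.38 for 24 h against adrenalectomized (315 genes). It was 0.37 for 24 h against 3 h and also for 24 h against intact, and 0.33 for 3 h against intact. This SD holds no variation between mice or pools.

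All 4 genes showed 1 high array, the one taken 3 h after cortisol, and 3 lower arrays. In the 5 probe sets that reached the floor, signals at 3 h were between 628 and 2688, while those on the other arrays stayed at or below 310. At 3 h all 4 genes were at least 2-fold above the adrenalectomized array, where 1.86% of 6168 genes were, and this is the contrast that chose them. At 24 h all 4 were at least 2-fold below the 3 h array, where 1.96% of 6229 genes were, and no reading is made of that count either, since it uses the 3 h array. The plot of signals by array shows the single peak.

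**Figure D1:**
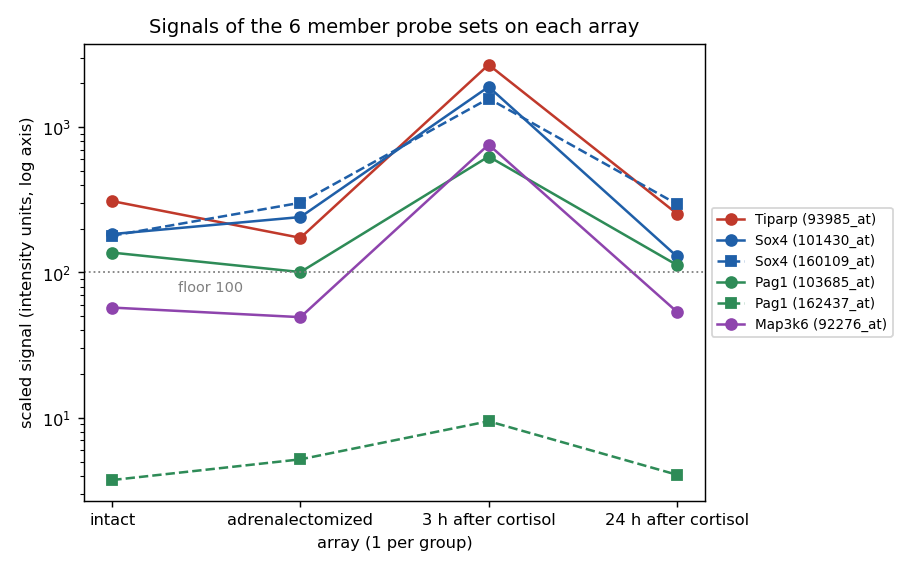
Scaled signals (log axis) of the 6 probe sets of Tiparp, Sox4, Pag1 and Map3k6 on the 4 arrays, 1 array per group. Solid lines with circles are the probe sets that represent the genes, dashed lines with squares are the second sets, and the dotted line is the floor of 100. Of the 6 sets, 5 peak at 3 h between 628 and 2688, and the second Pag1 set stays below 10 on all arrays.

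Tiparp read 310 in intact mice, 173 after adrenalectomy, 2688 at 3 h and 254 at 24 h (probe set 93985_at). The 3 h array was thus high and the adrenalectomized array low, and the intact and 24 h arrays lay between them. The 3 h signal was 15.5-fold above that after adrenalectomy, and Tiparp ranked first of the 5654 genes measured at or above the floor on both arrays. Genes below the floor after adrenalectomy are outside that ranking. Among them the epidermal gene Dsp, with 67.4 after adrenalectomy and 1720 at 3 h, was at least 17.2-fold higher, more than Tiparp. The log2 ratio of Tiparp ranged from 3.75 to 3.98 over the alternative settings. At 24 h the signal was 10.6-fold below that at 3 h, the third largest drop of 5685 genes measured on both arrays.

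Tiparp also differed between the arrays other than that at 3 h. A low adrenalectomized signal favours the choice of a gene by its 3 h excess, so comparisons with the adrenalectomized array are not independent of the choice either, for any of the 4 genes. Adrenalectomized mice had 1.79-fold less signal than intact mice, a log2 ratio of -0.84 that is larger in size than the error SD of 0.29. It ranked 25th from the lowest of 5660 genes in that comparison and was 1.55-fold to 1.86-fold lower over all settings. At 24 h the signal was 1.47-fold above that after adrenalectomy (log2 ratio 0.56, error SD 0.38). That ratio was 0.35 with a floor of 200 and also under scaling to ribosomal protein probe sets, both under the error SD. The 24 h signal was 1.22-fold below the intact level (log2 ratio -0.28, error SD 0.37). In order of level, the 24 h array thus lay above the adrenalectomized one by more than the error SD, but not in every setting. The 24 h and intact arrays differed by less than the error SD, with 1 exception. When ribosomal protein probe sets set the scale, their log2 ratio was -0.40.

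Sox4 was read by 2 probe sets, and both peaked at 3 h. Set 101430_at, the brighter on average, read 184 in intact mice, 241 after adrenalectomy, 1895 at 3 h and 129 at 24 h. Set 160109_at read 179, 302, 1574 and 296 in the same order. The first set was the brighter on average only through the 3 h array, which chose the genes. After adrenalectomy and at 24 h the second set was the brighter. Both sets had their highest signal at 3 h and a signal after adrenalectomy above that in intact mice, while they parted at 24 h, where the first set was at its lowest. The 3 h signal was 7.88-fold above that after adrenalectomy by the first set and 5.21-fold by the second. The drop from 3 h to 24 h was 14.7-fold by the first set, the second largest of 5685 genes, and 5.32-fold by the other.

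Outside the 3 h array the 2 sets gave different answers for Sox4. After adrenalectomy the signal was 1.31-fold above intact by 101430_at (log2 ratio 0.39) and 1.69-fold above by 160109_at (log2 ratio 0.75), against an error SD of 0.29. With a floor of 200 the ratio of the first set was 0.27, under that SD. At 24 h the first set was 1.86-fold below the adrenalectomized array (log2 ratio -0.90), while the second differed by a log2 ratio of only -0.03. Against intact mice the sets had opposite signs at 24 h, with log2 ratios of -0.51 and 0.72. Whether Sox4 at 24 h lay below or above its level in intact mice is thus not settled by these sets. With arrays scaled to ribosomal protein probe sets, the first set was 2.14-fold below the adrenalectomized array at 24 h.

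Pag1 read 137 in intact mice, 101 after adrenalectomy, 628 at 3 h and 113 at 24 h by set 103685_at. The 3 h signal stood alone, and the other 3 signals lay just above the floor. The 3 h signal was 6.24-fold above that after adrenalectomy, the eighth largest of 5654 genes measured on both arrays. Since the adrenalectomized signal is at the floor, a floor of 200 lowers this to 3.14-fold. The gene next below Pag1 in that order, Gm10229, was 5.75-fold higher, and the one next above, Mt2, 6.52-fold. That order leaves out genes below the floor after adrenalectomy, some of which had larger bounds. At 24 h Pag1 was 5.57-fold below its 3 h signal. The second Pag1 set, 162437_at, read between 3.73 and 9.46 on all arrays, below the floor, so it gives no second reading.

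Among the other arrays Pag1 was lowest after adrenalectomy. The adrenalectomized signal was 1.36-fold below intact (log2 ratio -0.44, error SD 0.29). The 24 h signal was 1.12-fold above the adrenalectomized array (log2 ratio 0.16, error SD 0.38) and 1.21-fold below the intact one (log2 ratio -0.28, error SD 0.37). Neither 24 h difference exceeded the error. With arrays scaled to ribosomal protein probe sets, the first turned negative, to a log2 ratio of -0.04, and the second was -0.39, past the error SD, as it was with quantile normalization at -0.38.

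Map3k6 read 57.3 in intact mice, 49.3 after adrenalectomy, 758 at 3 h and 53.8 at 24 h (probe set 92276_at). Only the 3 h array was above the floor of 100, and no order is read among the other 3. The 3 h signal was at least 7.58-fold above each of the other arrays, a bound set by the floor. Among 275 genes below the floor after adrenalectomy and above it at 3 h, Map3k6 had the eighth largest bound. The bound was at least 3.79-fold with a floor of 200.

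Against intact mice all 4 genes were also at least 2-fold higher at 3 h, as were 1.83% of 6162 genes, in a comparison that shares the 3 h array with the one that chose them. Tiparp was 8.68-fold above intact, Sox4 10.3-fold and 8.79-fold by its 2 sets, and Pag1 4.59-fold. Compared with the 3 h contrast against adrenalectomized mice, the ratio of Tiparp was smaller and that of Sox4 larger, which follows from their opposite signs in adrenalectomized against intact mice.

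Comparisons without the 3 h array gave no 2-fold difference for Tiparp, Sox4 or Pag1, the 3 genes above the floor there, except Sox4 under 1 scaling. In adrenalectomized against intact mice, 0 of 3 passed 2-fold, against 0.720% of 6112 genes in either direction. At 24 h against adrenalectomized mice the count was 0 of 3, against 2.33% of 6228 genes, and 1 of 3 under scaling to ribosomal protein probe sets, where Sox4 was 2.14-fold lower. At 24 h against intact mice it was 0 of 3, against 2.12% of 6219 genes. With so few members a count of 0 is near the background in each case. The plot of each cortisol array against the adrenalectomized array shows the 4 genes far off the diagonal at 3 h. At 24 h it shows Tiparp, Sox4 and Pag1 within the 2-fold lines, while Map3k6, below the floor on both arrays, is drawn at the floor.

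**Figure D2:**
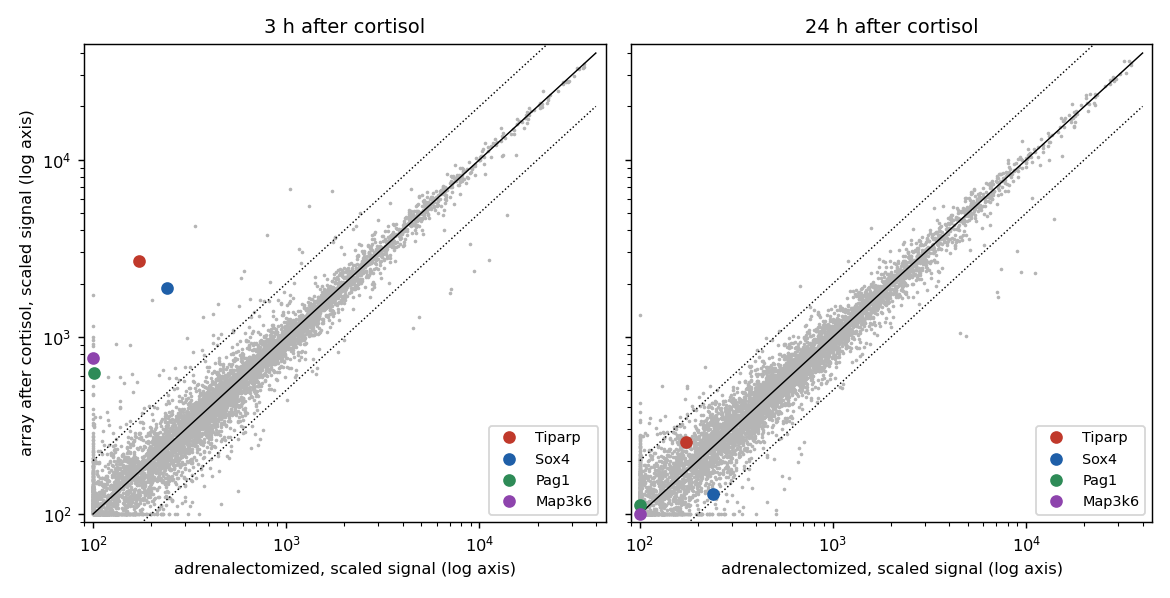
Scaled signals of each gene (grey points, log axes, signals below 100 set to 100) on the 3 h array (left) and the 24 h array (right) against the adrenalectomized array, with Tiparp, Sox4, Pag1 and Map3k6 coloured. The solid line is equality and the dotted lines mark 2-fold. The 4 genes lie between 6.24-fold and 15.5-fold above equality at 3 h, Map3k6 as a bound. At 24 h Tiparp, Sox4 and Pag1 lie inside the dotted lines, and Map3k6 is drawn at 100 because both its signals were lower.

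Little of the 3 h excess over the adrenalectomized array was left at 24 h for any of the 4 genes. The signal above the adrenalectomized array at 24 h was 3.23% of that at 3 h for Tiparp and 2.29% for Pag1. It was -6.73% for Sox4 by its first set, whose 24 h signal was the lower, and 0% for Map3k6, which was below the floor at both ends. By the second Sox4 set the adrenalectomized and 24 h signals were close, at 302 and 296. Of 26 established glucocorticoid-induced genes on the array, 13 were at least 2-fold higher at 3 h, and their share left at 24 h ran from -16.4% to 31.3% with a median of 0.45%. For 12 epidermis and hair markers that were at least 2-fold higher at 3 h, it ran from 0% to 29.7% with a median of 12.8%. Of the 13 glucocorticoid-induced genes 6 had a larger share left than any of the 4 genes, and of the 12 epidermis and hair markers 11 did, Krt10 with 15.0% and Krt71 with 18.3% among them. The genes in these 2 lists were taken by their 3 h signal, so the shares are a description.

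**Figure D3:**
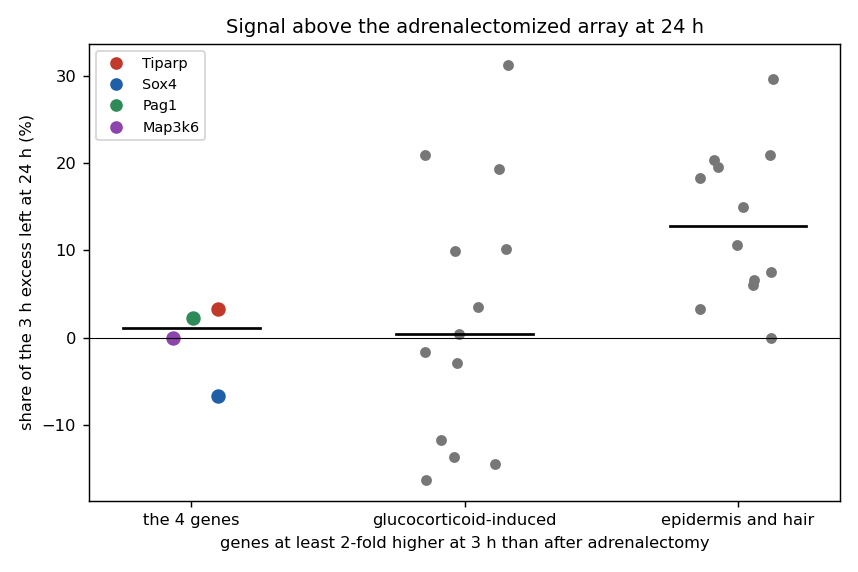
Share of the 3 h excess left at 24 h (percent of the 3 h minus adrenalectomized signal, with signals below 100 set to 100) for the 4 genes, 13 glucocorticoid-induced genes and 12 epidermis and hair markers that were at least 2-fold higher at 3 h. Points are genes and bars are medians, at 1.15%, 0.45% and 12.8%. Sox4 is drawn from its first set, 101430_at.

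The relatives of Tiparp showed no difference of 2-fold. All 10 other ADP-ribosylation enzymes on the array were at or above the floor, and 0 of 10 passed 2-fold at 3 h or at 24 h against adrenalectomized mice, which is near the shares of all genes past 2-fold either way, 3.03% and 2.33%. Their median log2 ratios were -0.02 and 0.08, beside -0.02 and 0.01 over all genes, and the highest at 3 h was 0.31. Art1, a cell surface ADP-ribosyltransferase of muscle, read between 6368 and 6892 on the 4 arrays. Of 11 genes of the aryl hydrocarbon receptor pathway on the array, 4 could be compared at 3 h and 0 passed 2-fold, where 3.03% of all genes did. The receptor gene Ahr read between 54.8 and 81.3, its repressor gene Ahrr between 11.6 and 28.2, and both stayed below the floor on all arrays. Cyp1a1, a classical target of that receptor, read 109, 66.7, 62.1 and 38.5 in the group order, and Cyp1b1, another, read 22.3, 36.5, 96.7 and 83.1, so that apart from Cyp1a1 in intact mice neither was above the floor and no difference is read. Nqo1, a quinone reductase gene, read 380 after adrenalectomy and 404 at 3 h. Arnt, the partner of the receptor, had a log2 ratio of -0.14 at 3 h. Aldh3a1, an aldehyde dehydrogenase gene and also a target of the receptor, read 131, 152, 256 and 89.9, was highest at 3 h, and was at least 2.56-fold lower at 24 h than at 3 h. The probe sets of Arnt and Nqo1 carry a suffix that marks shared or relaxed probes.

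Sox4 was the highest of the Sox genes by its ratio at 3 h, as its choice favoured. Of 13 other Sox genes on the array, 8 could be compared at 3 h and 1 was at least 2-fold higher, as were 1.86% of all genes, and so small a list says little against that share, with a median log2 ratio of 0.20. Sox15, expressed in muscle progenitor cells, read 246, 155, 335 and 281 in the group order, which is 2.16-fold higher at 3 h than after adrenalectomy and 1.36-fold higher than in intact mice. Sox11, which belongs with Sox4 to the SoxC group, stayed below the floor with 42.3 to 75.1. Sox3 read 123 after adrenalectomy and 282 at 24 h, 2.30-fold higher, by a probe set with a suffix that marks shared or relaxed probes. Sox17, an endothelial gene, peaked at 3 h like Sox4, with 407, 614, 1056 and 554 in the group order. Its 3 h signal was 1.72-fold above the adrenalectomized one and 2.59-fold above the intact one, and the 24 h signal was 1.91-fold below that at 3 h. Its relatives Sox18 and Sox7 were 1.45-fold and 1.75-fold lower at 3 h than after adrenalectomy.

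Pag1 had the highest ratio at 3 h among the Src family kinases and their regulators, as its choice favoured. Of 20 others on the array, 19 could be compared, and 1 was past 2-fold, near the share of 3.03% over all genes, with a median log2 ratio of 0.01. Csk, which Pag1 recruits, read 352, 344, 338 and 481 in the group order. Fyn read between 209 and 258 on the 4 arrays. Src read 106 and 117 on the intact and adrenalectomized arrays and was below the floor on both cortisol arrays. The ubiquitin ligase gene Cbl was 2.24-fold higher at 3 h and 2.11-fold higher at 24 h than after adrenalectomy. The adrenalectomized array was the low one for Cbl, since its signals of 310 and 292 on the cortisol arrays compare with 271 in intact mice and 138 after adrenalectomy. Blk, a Src family kinase of B cells, was at least 2.37-fold higher at 24 h than after adrenalectomy, where it was below the floor. Against intact mice it was 1.90-fold higher at 24 h.

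No 2-fold difference was read at 3 h among the kinases around Map3k6. Of 9 other MAP3K genes on the array, 8 could be compared at 3 h, with a median log2 ratio of 0.04. Of these, 0 passed 2-fold, which in so short a list is near the share of 3.03% over all genes. Map3k11 read 149.8 after adrenalectomy and was below the floor on both cortisol arrays, so its log2 ratio was -0.58 or lower and whether it passed 2-fold could not be read. Map3k5, the partner kinase, read 141, 127, 187 and 166 in the group order, so its 3 h signal was 1.47-fold above the adrenalectomized one. Below them in the cascade, 0 of 13 genes compared passed 2-fold at 3 h, also near the 3.03% of all genes. Another 2, Mapk10 and Mapk13, were below the floor at 3 h and after adrenalectomy. The p38-activating kinase gene Map2k3 read 3916, 3434, 5701 and 4561 in the same order and was 1.66-fold higher at 3 h than after adrenalectomy. Map2k6, the other p38-activating kinase gene, was 1.58-fold higher, with 471 against 299. The p38 gene Mapk14 differed by a log2 ratio of -0.02.

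**Figure D4:**
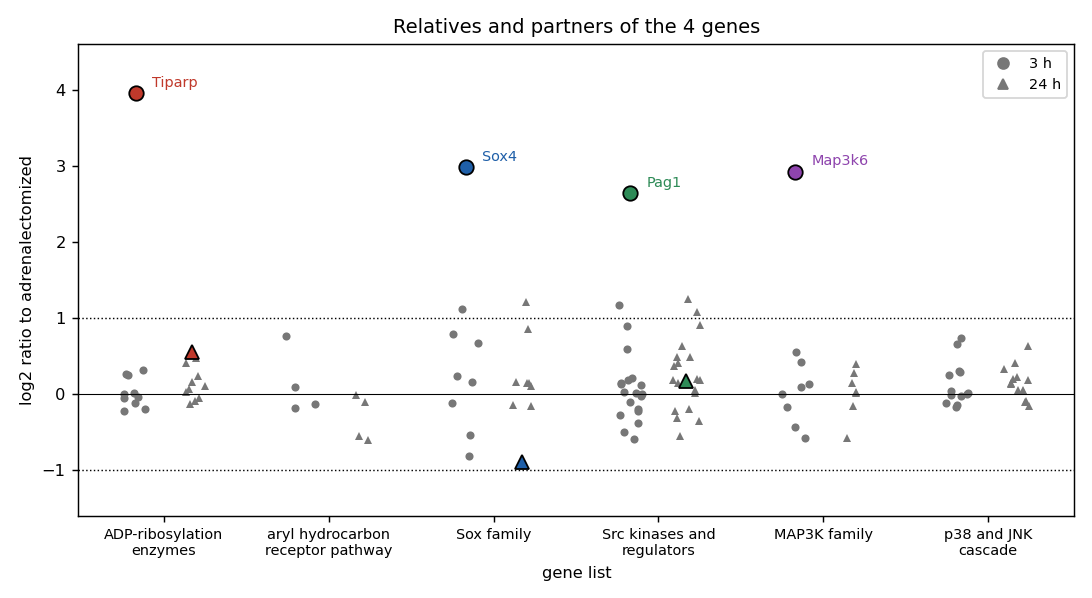
Log2 ratios to the adrenalectomized array at 3 h (circles) and 24 h (triangles) for genes of 6 lists of relatives and partners, with the 4 genes coloured and outlined. Dotted lines mark 2-fold, and genes below 100 on both arrays are left out. The 4 genes lie between 2.64 and 3.96 at 3 h, and the highest other gene of these lists at that time, Cbl, lies at 1.16.

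Likeness to other genes was measured as the root mean square difference of log2 signals over the 4 arrays, each centred on its own mean, with signals below 100 set to 100, among 5925 other genes that reached the floor at 3 h. Ddit4, an inhibitor of growth signalling through mTOR, was nearest to Sox4 with a difference of 0.24, followed by the transcription factor gene Cebpd with 0.39. Ddit4 read 338, 339, 4250.3 and 223 in the group order. Since the 3 h array chose the 4 genes and the pool was limited to genes above the floor at 3 h, likeness describes a shared 3 h peak and supports nothing further. The metallothionein gene Mt2, which binds metals, was nearest to Map3k6 with 0.11, a value that rests on 3 Map3k6 signals set to the floor. Mt2 was second for Pag1 with 0.17, and among the 3 nearest for Sox4 with 0.46 and for Tiparp with 0.45. Mt2 read 1101, 1047, 6819 and 1072, so its 3 h array alone was high. For Tiparp the nearest genes were the hair keratin-associated gene Krtap8-1 with 0.40 and Ddit4 with 0.45. For Pag1, Flg, a gene of the epidermal barrier, was nearest with 0.16, and the hair keratin gene Krt31 came after Mt2 with 0.25. The keratin gene Krt77 and Krtap8-1 were the other genes near Map3k6, with 0.33 and 0.34. Krtap8-1 and Krt77 were below the floor on the intact and adrenalectomized arrays, so their values rest on the floor too, and read 1147 and 958 at 3 h. Flg and Krt31 were below the floor on the adrenalectomized array only, so their values rest on it in part. Among the 4 genes themselves the difference ran from 0.26 for Pag1 and Map3k6 to 0.58 for Sox4 and Pag1. Among the 3 nearest genes, those of Tiparp, Pag1 and Map3k6 held 1 or 2 genes of skin or hair each, and those of Sox4 held none. The Sox4 values used set 101430_at only, which read 129 at 24 h where the other set read 296. With 3 genes each, this is a description of short lists.

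Markers of other cell types moved on the same arrays. The summed signal of 22 epidermis and hair markers was 3166, 3399, 15158 and 5085 in the group order, with 10, 9, 17 and 15 of the 22 at or above the floor. Krt10, a keratin of upper epidermis, read 227, 175, 2549 and 531, and the basal keratin genes Krt5 and Krt14 stayed below 26 on all arrays. The part of skin and hair in the 3 h signals of Tiparp, Sox4, Pag1 and Map3k6 was not tested. On the 24 h array the same list was 1.61 times its intact sum. Tiparp, Pag1 and the first Sox4 set were below their intact signals there, and the second Sox4 set was above its own. Against the adrenalectomized array, the 24 h sum of the list was 5085 against 3399. Tiparp was 1.47-fold and Pag1 1.12-fold higher in that comparison, and the 2 Sox4 sets were 1.86-fold and 1.02-fold lower. Map3k6 was below the floor on all of these arrays. Slow fibre markers summed to 75145, 82543, 30166 and 28620, all 10 above the floor on each array, and hepatocyte markers to 4781, 3314, 1643 and 1152, with 6 to 10 of 11 above the floor. Both lists were low on both cortisol arrays, unlike the 4 genes, and albumin (Alb) read 956, 686, 282 and 218.

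The lists for blood and vessel cells differed less between arrays in sum. Macrophage markers summed to between 6472 and 7940, with Csf1r, a growth factor receptor gene, at 630 at 3 h and 915 after adrenalectomy. Endothelial markers summed to between 7071 and 8350.9, with Pecam1 at 357 to 520. Lymphocyte markers summed to 3468, 2761, 3673 and 4659 in the order of the groups and were highest at 24 h. Cd3e, a T cell gene, stayed below the floor on all arrays, and Cd79a, a B cell gene, read 262, 129.6, 246 and 528. Fast fibre markers summed to between 301107 and 313775.

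**Figure D5:**
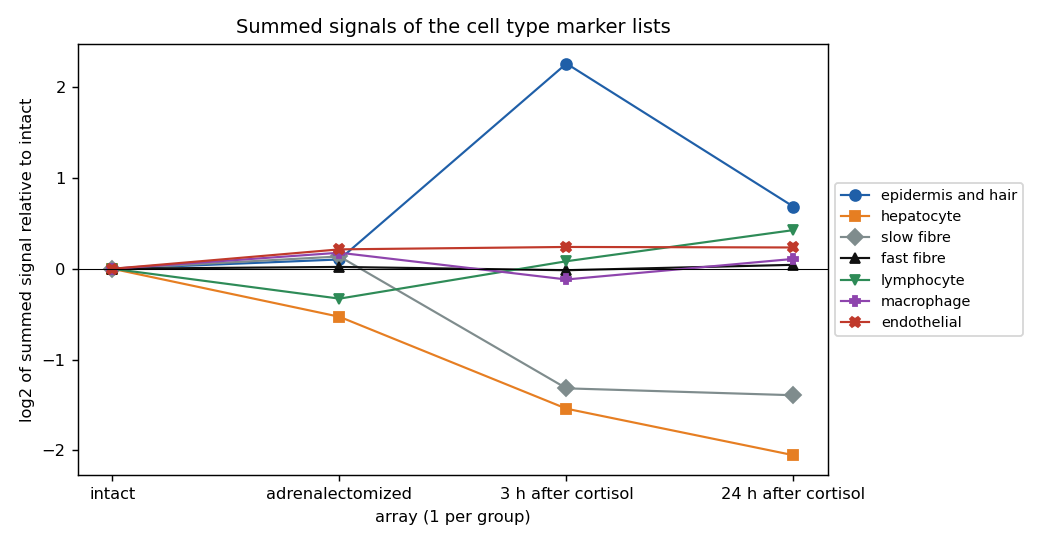
Log2 of the summed signal of each cell type marker list relative to the intact array, for 7 lists on the 4 arrays. The epidermis and hair list is highest at 3 h at 15158 against 3166 in intact mice, the slow fibre and hepatocyte lists are low on both cortisol arrays, and the fast fibre list stays near 0.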

How the data were processed

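Gastrocnemius RNA, pooled from 10 mice per group, was isolated with Trizol and put on 1 array per group, and the deposited probe set intensity signals were computed by the authors with MAS 5.0, per the labels. Trimmed means of the deposited signals were near 500 on each array, and the settings of that scaling are not given in the sources used here.

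Of 12488 probe sets, 66 controls were left out. Signals were rescaled to a trimmed mean of 500 (2% left out at each end), set to a floor of 100 where lower, and compared as log2 ratios in Python 3.11.15 with pandas 2.3.3, by code checked on simulated data. Each gene was read from its brightest probe set on average over the 4 arrays, the 3 h array included. It entered a comparison if 1 of the 2 arrays reached the floor. A ratio was a lower bound where either array was under it. Symbols came from the platform's annotation, with 10817 of 10833 single-symbol probe sets matched by gene ID to GRCm38.p6. An error SD is the SD, over genes, of the difference in log2 ratio between the 2 brightest sets, divided by the square root of 2.

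The 4 genes, the gene lists and the rule for named genes were chosen with earlier results of these data known. Named genes were the 4 genes, the 3 nearest to each in profile, direct partners, relatives past 2-fold and defining markers. Art1, Ahrr, Sox7, Sox17, Sox18, Map3k11, Mapk10, Mapk13, Gm10229, Krt71 and Dsp were added after their values were seen. The alternatives were floors of 50 and 200, scaling to medians or to ribosomal protein probe sets, quantile normalization, averaging all probe sets of a gene, and plain probe sets only.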

Additional observations from a re-analysis of the deposited data

How the results depend on the processing

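Over the 7 alternatives, 184 of 227 values moved little, and no ratio past 2-fold changed sign. Little means less than the error SD of a log2 ratio over genes of all signals, 0.24 to 0.32, or, for counts, less than 1.5 times. Some ratios could not move, so the tally overstates stability. All 4 genes are read from plain probe sets, averaging changes only Sox4, and a floor of 50 changes only Map3k6. Floors of 50 and 200 moved the counts of genes past 2-fold most, since fewer or more signals count as unread. Genes higher at 3 h than after adrenalectomy numbered 214 and 68 (115 with a floor of 100) and genes lower 157 and 34 (72). For 24 h against adrenalectomized they were 196 and 17 higher (79) and 158 and 26 lower (66), and for 24 h against 3 h 194 and 24 higher (82) and 217 and 65 lower (122). For adrenalectomized against intact they were 101 and 4 higher (21) and 92 and 7 lower (23). For 3 h against intact they were 213 and 67 higher (113) and 157 and 34 lower (64), and for 24 h against intact 193 and 19 higher (69) and 155 and 32 lower (63). Scaling to ribosomal protein probe sets gave 122 genes lower at 3 h and 43 higher and 115 lower at 24 h against adrenalectomized, and 43 higher at 24 h against intact, with the median of all genes at -0.22 at 3 h and -0.19 at 24 h. The share of higher genes among those past 2-fold at 3 h was 61.5%, and 39.3% under that scaling. At 24 h against adrenalectomized it was 54.5% and 27.2%, for adrenalectomized against intact 47.7% and 60.0%, for 3 h against intact 63.8% and 51.7%, and for 24 h against intact 52.3% and 36.4%. That last share was 39.2% with median scaling and 41.0% with quantile normalization.

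Of the 4 genes, Map3k6 depended on the floor, because its bound is set by it. Its log2 ratio at 3 h against adrenalectomized was at least 3.92 with a floor of 50 and 1.92 with 200, against intact at least 3.73 and 1.92, and for 24 h against 3 h -3.82 and -1.92. With a floor of 200 Pag1 had 1.65 at 3 h against both adrenalectomized and intact, and -1.65 for 24 h against 3 h. Averaging both Sox4 sets gave 2.68 at 3 h against adrenalectomized, where the first set gave 2.98, a shift past the SD of 0.28 over genes of all signals. The same averaging gave -0.46 at 24 h against adrenalectomized, -3.14 for 24 h against 3 h and 0.11 for 24 h against intact. A floor of 200 gave Sox4 -0.27 at 24 h against adrenalectomized and -3.24 for 24 h against 3 h. No paired analysis was possible because each group had 1 array, and no array could be left out for the same reason. Signals near the floor limit what can be read for Pag1 and Map3k6 outside the 3 h array.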
